A study of Mus musculus with 9 samples.

Results

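The genes described here are the zinc finger protein genes of the mouse whose symbol is Zfp followed by a number of 3 digits that starts with 6, 7, 8 or 9, with or without a letter. They were chosen by symbol alone, without use of any expression value. The rule found 149 genes among the 37980 listed, and 3 symbols (Zfp664, Zfp708 and Zfp738) that stood in several rows were taken at the row with the highest FPKM. RNA was sequenced from 9 libraries of 4 cell types of the female germline. Primordial germ cells of embryonic day 12.5, called PGCs here, gave 3 libraries (E12.5 PGCs). FGSCs, female germline stem cells, gave 2 libraries. GV oocytes, which are grown but still in the prophase of meiosis, and MII oocytes, which have completed the first meiotic division, gave 2 libraries each. By the labels all samples were female, C57BL/6 and at passage 0. The Methods of the study describe PGCs taken from XX genital ridges and FGSCs of the ovaries of mice a few days old. Both were sorted for GFP in mice with Mvh-cre and ROSA mT/mG, in which Cre is driven by the germ cell gene Mvh. The Methods also describe fully grown oocytes of adult mice given PMSG, taken here as the GV oocytes. They do not describe the MII oocytes.

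The authors pooled the libraries of a cell type into a single FPKM value for each gene (fragments scaled to transcript length and to the number of mapped fragments). No spread between libraries can therefore be given, and every difference below describes pooled values without a test. A member was counted as higher or lower between cell types at a ratio of 2-fold or more on log2(FPKM + 1), a scale that understates the change of low genes. Except in the clusters along the chromosomes, where every member was counted, such counts cover members with a mean of at least 1 FPKM over the 4 cell types, which 115 members passed and 34 did not. Of the 34, at most 5 were past 2-fold in any comparison. Within a cell type, fewer cells with a transcript and less transcript per cell cannot be told apart.

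Most C2H2 zinc finger proteins bind DNA through a row of fingers, each of which reads a few bases. A large subclass carries a KRAB domain, which recruits the corepressor TRIM28 (KAP1) and through it the H3K9 methyltransferase SETDB1, HP1 proteins and DNA methylation. KRAB zinc finger genes lie in clusters that grew by tandem duplication, and many of their products bind and silence retrotransposons, which matters in germ cells and early embryos because these erase and rebuild DNA methylation. Members without a KRAB domain have other roles, among them in development, chromatin complexes and ribosome assembly.

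The family was first divided by protein structure. Coding sequences from GENCODE (GRCm38) were found for 146 members, and a KRAB A box was recognised by sequence pattern in 85 of them and not in 61. The pattern can miss a diverged box, and when any coding transcript of the gene was allowed the number with a box was 88. Members with a KRAB box had a median of 12 fingers and members without one a median of 7, with a maximum of 33 in Zfp619. In 6 members (Zfp703, Zfp750, Zfp781, Zfp839, Zfp935 and Zfp957) no finger matched the pattern used. Zfp640, Zfp783 and Zfp939 had no coding sequence and belong to neither class.

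The members were unevenly spread over the genome, with 34 on chromosome 7, 21 on chromosome 17, 17 on chromosome 8 and 13 on chromosome 13, and only Zfp711 on the X chromosome. Runs of 3 or more members whose starts lay at most 500 kb apart formed 14 clusters with 77 members, 58 of them with a KRAB box and 17 without. Such neighbours are often near copies. For 29 members more than 20% of the 31-base words of the longest transcript also occurred in transcripts of other genes, and 40 members have the same listed start and end as another gene, so that the split of reads between the genes is uncertain. Zfp955a and Zfp955b are an example, as 66.0% of the words of Zfp955a and 40.2% of those of Zfp955b recurred elsewhere, mainly in each other. The 40 members with a shared span include Zfp617, Zfp644, Zfp652, Zfp687, Zfp689, Zfp704, Zfp738, Zfp777, Zfp784, Zfp800, Zfp808, Zfp828, Zfp943, Zfp946 and Zfp953. This limit is not repeated at each of their mentions.

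Promoter sequences are shown for members of both classes because the classes differed in level between cell types, as described below, and in the bases around their starts. RefSeq windows of 300 bases (GRCm38.p6), from 250 bases before to 50 after a start, were matched to 129 members, which had 157 windows. The other 20 were Zfp608, Zfp609, Zfp612, Zfp623, Zfp646, Zfp647, Zfp654, Zfp703, Zfp704, Zfp706, Zfp707, Zfp711, Zfp750, Zfp828, Zfp831, Zfp865, Zfp870, Zfp930, Zfp934 and Zfp960. Motifs were searched on both strands after the levels were seen. They were TAATTG as well as TGATTG, the E-box CANNTG and the core CCAAT of the CCAAT box that the factor NF-Y binds. The longest was CCAATCA, which holds CCAAT and, on the opposite strand, TGATTG. Every window with CCAATCA therefore also counts for TGATTG and for CCAAT, so the shares of these motifs are not independent. The extended motif CCAATCA was found in 35 of 95 windows (36.8%) of members with a KRAB box, in 6 of 58 windows (10.3%) of members without one and in 7.82% of all 32851 promoter windows. Its shorter core CCAAT was in 62.1%, 37.9% and 37.4% of the same windows. Of the 39 matches of CCAATCA in windows of KRAB members, 32 began within 100 bases before the start, with a median position of -65 relative to it. In all windows 56.4% of the matches began there, and in windows of members without a box 4 of 6. TGATTG was in 42.1% of windows of KRAB members and 14.0% of all windows. Zfp genes with a number under 600 are the set most like the members. Among them CCAATCA was in 15 of 80 windows (18.8%) with a KRAB box and in 11 of 138 (7.97%) without one. TGATTG was in 23.8% and 11.6% of these windows. Of their CCAATCA matches, 17 of 17 with a KRAB box began within 100 bases before the start (median -62), and 8 of 12 without one. The shares of windows with CCAATCA and TGATTG were therefore higher in KRAB members than in other KRAB genes of the Zfp series. The share of matches near the start was not. TAATTG was in 5.26% of windows of KRAB members and 8.0% of all windows, and CANNTG in 74.7% and 72.3%. Duplicated genes share promoter sequence, so windows of 1 cluster are not independent, and a match is a description of letters and not a bound site.

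The windows of 4 KRAB members with CCAATCA and 2 members without a KRAB box follow, 5′ to 3′ on the strand of the gene, with each CCAATCA in capitals. Zfp873 (chr10:82047873-82048172, plus strand), Zfp955b (chr17:33289294-33289593, plus), Zfp961 (chr8:71950816-71951115, plus) and Zfp664 (chr5:124862455-124862754, plus) were highest in MII oocytes, as was Zfp957 (chr14:79247318-79247617, minus). Zfp868 (chr8:69625499-69625798, minus) was highest in PGCs.
Zfp873: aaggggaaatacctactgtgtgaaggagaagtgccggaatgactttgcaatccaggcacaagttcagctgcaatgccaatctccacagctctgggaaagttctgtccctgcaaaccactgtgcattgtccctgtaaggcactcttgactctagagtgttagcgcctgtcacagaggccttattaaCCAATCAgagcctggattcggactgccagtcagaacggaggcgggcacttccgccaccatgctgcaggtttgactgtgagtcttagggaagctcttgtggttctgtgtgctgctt
Zfp955b: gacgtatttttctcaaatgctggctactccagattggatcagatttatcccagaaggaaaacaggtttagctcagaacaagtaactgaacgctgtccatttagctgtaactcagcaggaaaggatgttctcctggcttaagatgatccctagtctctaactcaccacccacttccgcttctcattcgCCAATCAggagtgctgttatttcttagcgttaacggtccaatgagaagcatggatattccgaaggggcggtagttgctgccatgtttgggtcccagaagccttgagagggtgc
Zfp961: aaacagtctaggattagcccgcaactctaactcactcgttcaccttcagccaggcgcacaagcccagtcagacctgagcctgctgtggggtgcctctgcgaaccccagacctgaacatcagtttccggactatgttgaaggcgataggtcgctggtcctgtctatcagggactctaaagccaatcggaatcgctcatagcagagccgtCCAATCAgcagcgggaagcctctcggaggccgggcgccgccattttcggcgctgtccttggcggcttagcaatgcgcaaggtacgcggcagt
Zfp868: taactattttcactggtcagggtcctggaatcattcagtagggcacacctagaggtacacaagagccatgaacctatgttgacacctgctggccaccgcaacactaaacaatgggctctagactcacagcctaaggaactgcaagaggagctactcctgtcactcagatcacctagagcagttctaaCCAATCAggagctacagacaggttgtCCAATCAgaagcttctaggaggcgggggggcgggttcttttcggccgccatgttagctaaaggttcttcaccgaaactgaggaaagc
Zfp664: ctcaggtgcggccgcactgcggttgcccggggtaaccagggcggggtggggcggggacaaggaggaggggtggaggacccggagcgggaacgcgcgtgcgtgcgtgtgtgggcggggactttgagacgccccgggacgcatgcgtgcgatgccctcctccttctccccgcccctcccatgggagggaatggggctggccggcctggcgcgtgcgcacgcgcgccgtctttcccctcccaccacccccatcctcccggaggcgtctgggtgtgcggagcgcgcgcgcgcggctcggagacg
Zfp957: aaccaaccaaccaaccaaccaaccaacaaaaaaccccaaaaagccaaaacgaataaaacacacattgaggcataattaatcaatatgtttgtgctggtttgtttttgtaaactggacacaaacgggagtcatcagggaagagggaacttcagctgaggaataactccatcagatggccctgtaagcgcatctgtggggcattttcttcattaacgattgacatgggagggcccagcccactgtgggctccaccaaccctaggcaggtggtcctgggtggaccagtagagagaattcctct
In these windows the matches of Zfp873, Zfp955b and Zfp961 began at -65, -63 and -42, and Zfp868 has 2 matches, the first of them at -63. The windows shown do not stand for a clean divide between the classes. The KRAB members Zfp677, Zfp688, Zfp708, Zfp735, Zfp748, Zfp772 and Zfp948, also named by rank, have no CCAATCA in their windows. Zfp644, without a KRAB box, has a match at -248 in 1 of its windows. Zfp664 has 39 CpG dinucleotides in its window and Zfp957 has 4. The median was 10 CpG per window for members with a KRAB box, 21.5 for members without one and 7 over all promoter windows. By cell type of highest level, CCAATCA was in 30.2% of 43 windows of members highest in PGCs, in 20.0% of 15 windows of those highest in FGSCs, in 10.5% of 19 windows of those highest in GV oocytes and in 38.0% of 50 windows of those highest in MII oocytes. Counted by gene the shares were 36.4%, 23.1%, 13.3% and 33.3%, so the order of PGCs and MII oocytes turned. These groups are those of the deposited scale, with 35, 16, 19 and 45 members that passed the filter. On the scaled values described below the groups held 25, 45, 23 and 27 members, and the motif was not counted in them. The groups also differed in KRAB members, with 22, 6, 5 and 30 on the deposited scale, and the part of this was not tested.

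Transcripts of the family were present in all 4 cell types at mostly low levels. Above 1 FPKM were 86 members in PGCs (57.7%), 103 in FGSCs (69.1%), 85 in GV oocytes (57.0%) and 83 in MII oocytes (55.7%). Among protein-coding genes these shares were 48.4%, 55.0%, 53.3% and 49.9%, and among all listed genes 28.6%, 31.9%, 31.5% and 30.2%. The median member was at 2.02 FPKM in PGCs, 2.52 in FGSCs, 1.59 in GV oocytes and 1.71 in MII oocytes. The spread of levels was smallest in FGSCs, where 8 members were listed at 0 (5.37%) and 14 were above 10 FPKM (9.4%). It was largest in MII oocytes, where 22 were listed at 0 (14.8%), 30 were above 10 FPKM (20.1%) and 13 above 50 FPKM. Among all listed genes 50.7% were at 0 in FGSCs and 52.8% in MII oocytes, and 14.2% and 16.1% were above 10 FPKM. Above 50 FPKM were 1536 of all listed genes in FGSCs and 2842 in MII oocytes, so the order was not particular to the family. These counts were made on the deposited scale only. In all 4 cell types 45 members exceeded 1 FPKM. A further 23 exceeded it in none, and 18 exceeded it in 1 cell type only, of which 9 did so in FGSCs. These 3 groups were not counted over all genes. Zfp626, Zfp781 and Zfp831 were listed at 0 throughout.

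**Figure D1:**
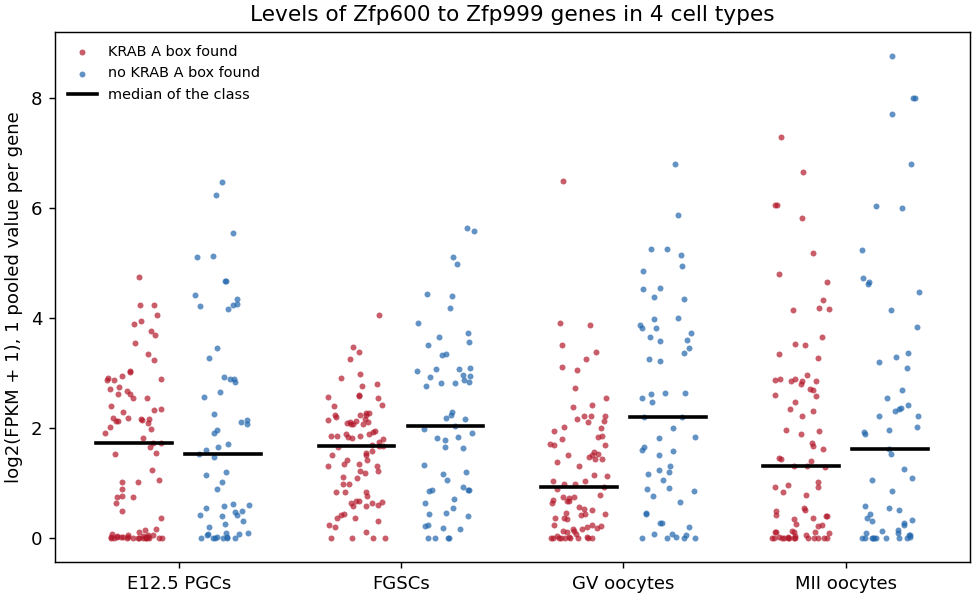
Each point is 1 member, placed by its pooled log2(FPKM + 1) in each of the 4 cell types and coloured by whether a KRAB A box was found (85 members) or not (61 members), with a black bar at the class median. In GV oocytes the median was 0.89 FPKM with a box and 3.58 FPKM without one, the widest gap of the 4 cell types.

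The members with the highest levels were mainly without a KRAB box. Zfp706, a small protein with 1 finger that in mouse embryonic stem cells promotes exit from self-renewal, was at 87.3 FPKM in PGCs, 46.6 in FGSCs, 37.0 in GV oocytes and 206.9 in MII oocytes. It was among the 6 highest members in every cell type. Zfp664 was at 24.3, 30.6, 110.5 and 252.8 FPKM across the same cell types, and the authors' table holds a further row for that symbol with the same span. Zfp655 was at 20.4, 17.1, 34.3 and 253.2 FPKM. Both genes were therefore highest in MII oocytes and lowest in PGCs or FGSCs. Zfp771 was at 19.2, 48.4, 37.1 and 1.87 FPKM, with its lowest value in MII oocytes. Among members with a KRAB box, Zfp688 led in PGCs and FGSCs at 25.6 and 15.5 FPKM, Zfp707 in GV oocytes at 88.5 FPKM and Zfp961 in MII oocytes at 154.8 FPKM.

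**Figure D2:**
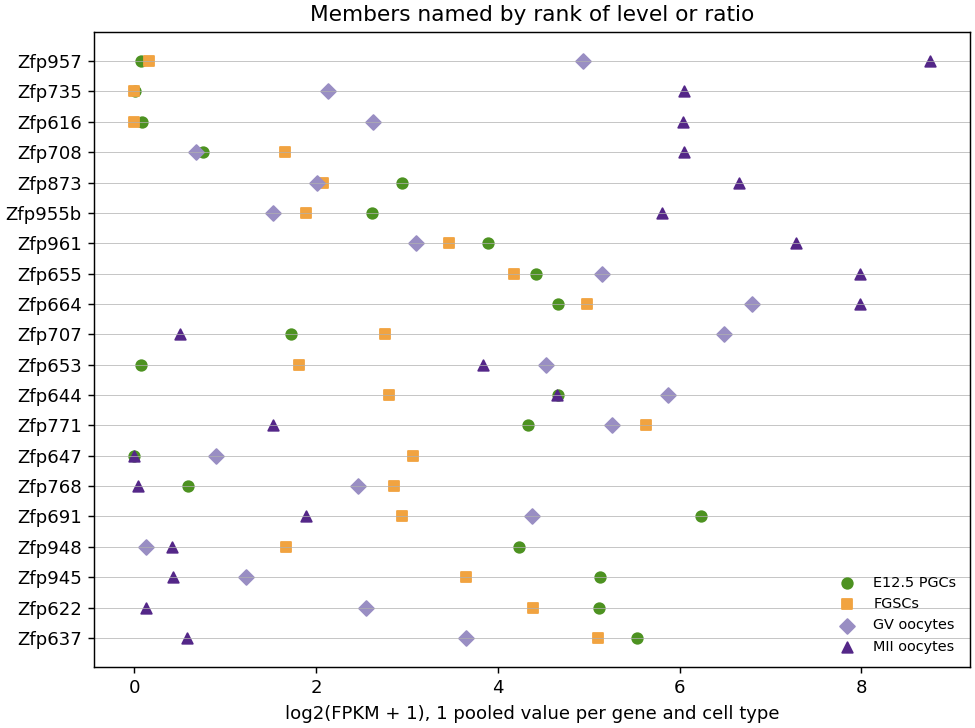
Levels of 20 members named by rank of level or ratio, as log2(FPKM + 1), with 1 symbol per cell type. Zfp957, Zfp735 and Zfp616 at the top are near 0 in PGCs and FGSCs and highest in MII oocytes, and Zfp691, Zfp948, Zfp945, Zfp622 and Zfp637 at the bottom are highest in PGCs.

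The FPKM sums of the cell types differed, from 417955 in FGSCs to 1232438 in MII oocytes, with 688500 in PGCs and 560962 in GV oocytes, so values were also scaled to the same sum of 1000000 in each cell type. This scaling, chosen after seeing the data, moved the median log2 ratio of all genes from 0.10 to -0.57 between MII and GV oocytes, from 0 to 0.48 between FGSCs and PGCs, from 0.03 to 0.26 between GV oocytes and PGCs and from 0 to -0.38 between GV oocytes and FGSCs. Counts of higher and lower members in each comparison are therefore given on both scales, beside the shares of all genes. The 4 comparisons share cell types and are not independent of each other. Of the 48 ratios named below for single members, 48 stayed past 2-fold in the same direction after scaling.

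The first comparison was between FGSCs and PGCs, the postnatal and the fetal germ cells. Of 115 members that passed the filter, 27 were higher in FGSCs (23.5%, against 19.3% of the 13745 genes that passed) and 22 were lower (19.1% against 18.3%), with a median log2 ratio of -0.24 (0 over all genes). With scaling, 44 of 120 were higher (36.7% against 35.2% of all genes) and 8 lower (6.67% against 8.24%), and the median was 0.28 (0.48 over all genes). On the deposited scale both shares lay within 5 percentage points of those of all genes. The largest log2 ratio toward FGSCs was 3.07, and the 6 largest toward PGCs ran from -1.68 to -3.29.

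Of the 27 members higher in FGSCs, 17 had no KRAB box and 9 had one, and of the 22 lower ones 8 and 13. After scaling, 20 KRAB members were higher and 4 lower of 66, and 23 of the others were higher and 4 lower of 51, so the balance of the KRAB members turned. The class medians were 0.09 without and -0.42 with a box, and 0.57 and 0.22 after scaling. Zfp647 was at 7.37 FPKM in FGSCs and listed at 0 in PGCs. Zfp783 was at 7.05 and 0.304 FPKM, but it shares its listed span with Zfp956. Zfp692 was at 20.5 FPKM in FGSCs and 3.39 in PGCs. Zfp768 was at 6.27 and 0.504 FPKM, a log2 ratio of 2.27. These 4 were all below 4 FPKM in PGCs. Zfp746 (PARIS), which represses the gene of the coactivator PGC-1 alpha in neurons, was at 3.70 and 0.0166 FPKM. Zfp668, whose human counterpart acts in DNA repair, was at 9.13 and 1.21 FPKM and shares its listed span with 3 other genes.

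Lower in FGSCs were Zfp691 at 6.73 FPKM against 74.5 in PGCs, a log2 ratio of -3.29, and Zfp948 at 2.18 against 17.8. The next in order were Zfp865 at 0.556 against 4.88 FPKM, Zfp644 at 6.00 against 24.3, Zfp677 at 1.54 against 7.23 and Zfp772 at 0.980 against 5.33. Zfp644, the counterpart of human ZNF644, belongs to a complex with the H3K9 methyltransferases G9a and GLP. It is 1 of 3 genes with the same listed span. Among the 6, Zfp948, Zfp677 and Zfp772 have a KRAB box. Markers of red blood cells summed over 4 genes to 14344 FPKM in PGCs and 5209 in FGSCs. Most of that gap was Hba-x, at 10452 and 1599 FPKM, and the other 3 summed to 3892 and 3610. Markers of granulosa and pregranulosa cells summed over 7 genes to 116.8 and 228.3 FPKM. Their part in the ratios of the members was not tested.

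GV oocytes were then compared with PGCs. Of the 115 members, 32 were higher in GV oocytes (27.8%, against 31.5% of all genes) and 41 were lower (35.7% against 29.1%), with a median log2 ratio of -0.25 (0.03 over all genes). That sign was not stable, as the median was -0.0052 after scaling (0.26 over all genes), 0.0 without the filter and 0.048 over members that share at most 20% of their words. The classes had medians of opposite sign. Of 63 members with a KRAB box, 8 were higher and 28 lower in GV oocytes, with a median of -0.86. Of 49 members without one, 23 were higher and 12 lower, with a median of 0.90. After scaling the medians were -0.57 and 1.25, with 13 KRAB members higher and 25 lower of 66, and the family as a whole had 45 higher (37.5% against 36.8% of all genes) and 38 lower (31.7% against 25.9%) of 120. KRAB members inside clusters (5 higher and 20 lower of 42, median -0.93) and outside them (3 higher and 8 lower of 21, median -0.46) both had negative medians. Zfp genes with a number under 600 were also counted. Their KRAB members had 12 higher and 23 lower of 63 and a median of -0.79, and those without a box had 35 higher and 35 lower of 111 and a median of 0.08. Scaling left these medians at -0.61 and 0.31.

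**Figure D3:**
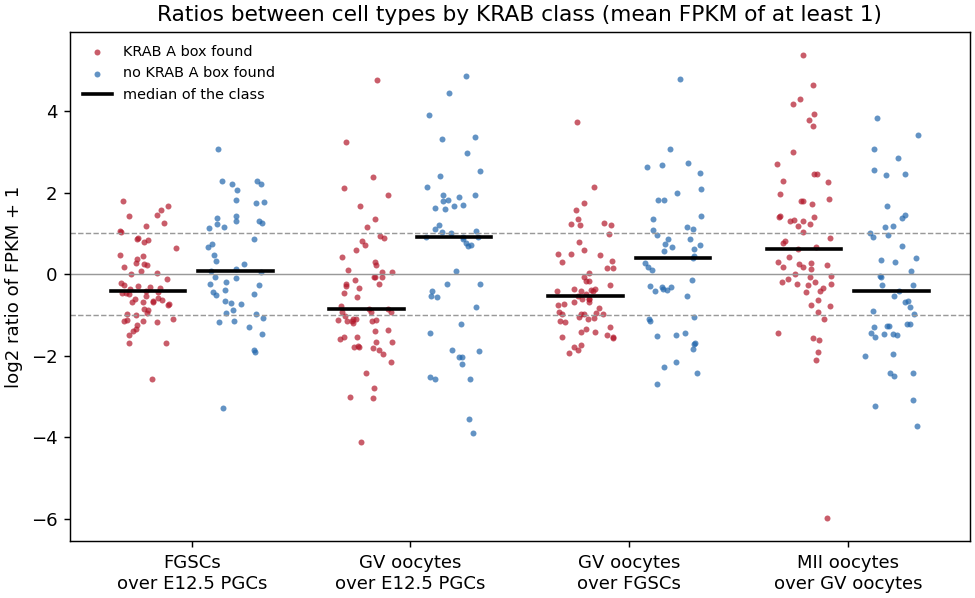
Each point is the log2 ratio of FPKM + 1 of 1 member between the cell types named below it, for 63 members with a KRAB A box and 49 without one, with black bars at class medians and dashed lines at 2-fold. For GV oocytes over PGCs the bars are at -0.86 and 0.90, and for MII over GV oocytes at 0.62 and -0.41.

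The 6 members with the largest ratios toward GV oocytes, from 3.31 to 4.86 on the log2 scale, were all below 3 FPKM in PGCs. Zfp957 was at 29.7 FPKM in GV oocytes, 0.0537 in PGCs and 0.118 in FGSCs. Zfp653, which shares its listed span with 2 other genes, was at 22.0, 0.0554 and 2.52 FPKM likewise, and Zfp956 at 14.9, 0.0650 and 3.48. Zfp707, the only KRAB member among the 6, was at 88.5 FPKM in GV oocytes, 2.31 in PGCs and 5.79 in FGSCs. Zfp628 was at 9.24 FPKM in GV oocytes and listed at 0 in PGCs. Zfp750, a regulator of epidermal differentiation, was at 12.2 FPKM against 0.333, but its listed span is shared with 2 other genes, so the level may not be its own.

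Toward PGCs the 6 largest ratios ran from -2.79 to -4.11 on the log2 scale. They were those of Zfp948, at 17.8 FPKM in PGCs and 0.0937 in GV oocytes, and Zfp945, at 33.95 and 1.34 FPKM. Zfp710 was at 17.6 and 0.574 FPKM and Zfp677 at 7.23 FPKM and listed at 0 in GV oocytes. Zfp748 was at 15.6 and 1.05 FPKM and Zfp868 at 17.8 and 1.72 FPKM. The window of Zfp868 shown above has 2 CCAATCA matches, and its other window has none. Zfp948, Zfp677, Zfp748 and Zfp868 have a KRAB box. Zfp945 lies in the same cluster as Zfp948 and Zfp677 and had no box by the pattern.

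GV oocytes were also compared with FGSCs. In GV oocytes 25 members were higher (21.7%, against 26.7% of all genes) and 31 lower (27.0% against 25.2%), with a median log2 ratio of -0.36 (0 over all genes). The scaled values gave 22 higher (18.3% against 22.9% of all genes) and 51 lower members (42.5% against 36.2%) of 120 and a median of -0.79 (-0.38 over all genes), and with a mean of at least 5 FPKM the median was 0.43. KRAB members had 9 higher and 17 lower, members without a box 15 higher and 13 lower. After scaling, KRAB members had 8 higher and 35 lower of 66, with a median of -1.11, and the others 13 and 14 of 51, with a median of 0.03.

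Zfp957 and Zfp707 led this comparison toward GV oocytes with log2 ratios of 4.78 and 3.72, followed by Zfp644 at 57.6 FPKM against 6.00, Zfp653, Zfp821 at 27.7 against 3.54 FPKM and Zfp616 at 5.18 FPKM, which was listed at 0 in FGSCs. Zfp644 is 1 of 3 genes with the same listed span, and Zfp616 is 1 of 2. Toward FGSCs, Zfp623 was at 10.8 FPKM against 0.814 and Zfp783 at 7.05 against 0.442. Zfp945, Zfp710, Zfp647 and Zfp868 followed, with log2 ratios from -2.42 to -1.95.

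The last comparison was between MII and GV oocytes, that is, after and before meiotic maturation, when transcription is silent and stored mRNAs are lengthened at their poly(A) tails or degraded. Libraries were primed with oligo(dT), so a change in the amount of a transcript and a change in its poly(A) tail cannot be told apart. In MII oocytes 41 members were higher (35.7%, against 35.6% of all genes) and 25 lower (21.7% against 28.4%), with a median log2 ratio of 0.23 (0.10 over all genes). With scaling the split was 25 higher (20.8% against 20.6% of all genes) and 42 lower (35.0% against 41.5%), with a median of -0.46 (-0.57 over all genes). Of the KRAB members 27 were higher and 7 lower, with a median of 0.62, and of those without a box 13 were higher and 18 lower, with a median of -0.41. After scaling the KRAB members had 17 higher and 15 lower and a median of -0.29, the others 7 higher and 27 lower and a median of -1.17, so the sign of the KRAB median turned with the scale, and it lay above that of the other class on both. In Zfp genes with a number under 600, 24 of 63 KRAB members were higher and 7 lower (median 0.46, and -0.05 after scaling), and 26 of 111 others were higher and 31 lower (median 0.02, and -0.73 after scaling).

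Of the 6 members with the largest ratios toward MII oocytes, from 3.81 to 5.36 on the log2 scale, 5 have a KRAB box. Zfp708, which binds and represses RMER19B retrotransposons in the mouse, was at 0.609 FPKM in GV oocytes and 65.1 in MII oocytes, against 0.693 in PGCs and 2.15 in FGSCs. All 31-base words of its transcript also occur in the transcript Gm28557, so its level is shared with that model. The symbol also stood in several rows, of which the one with the highest FPKM was taken. Zfp873 was at 3.02 and 99.6 FPKM in GV and MII oocytes and at 6.71 and 3.21 in PGCs and FGSCs. Zfp955b was at 1.88 FPKM in GV oocytes and 55.1 in MII oocytes, and its near copy Zfp955a at 0.466 and 19.02. Zfp961 (ENSMUSG00000052446) has little shared sequence, with 0.335% of words, although another gene has the same listed span. It was at 13.9 FPKM in PGCs, 10.1 in FGSCs, 7.59 in GV oocytes and 154.8 in MII oocytes. Each of these was higher in MII oocytes than in the other 3 cell types by more than 4-fold on log2(FPKM + 1) as deposited.

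Zfp735 and Zfp957 completed the 6 and, with Zfp616, were close to 0 in PGCs and FGSCs. Zfp735 was at 0.00398 FPKM in PGCs, listed at 0 in FGSCs, and at 3.37 and 65.0 FPKM in GV and MII oocytes. Zfp616, a gene nearby on chromosome 11, was at 0.0643 and 0, and then at 5.18 and 64.5 FPKM. Zfp957 (ENSMUSG00000071262) reached 430.4 FPKM in MII oocytes, the highest value of any member in any cell type. Summed over 10 marker genes of oocytes, the level was 23.9 FPKM in PGCs, 23.7 in FGSCs, 16262 in GV oocytes and 31716 in MII oocytes.

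The largest ratio in the other direction was that of Zfp707 (ENSMUSG00000034429), a KRAB gene on chromosome 15, at 88.5 FPKM in GV oocytes and 0.419 in MII oocytes, a log2 ratio of -5.98. The next 5 had ratios from -3.73 to -2.42. Zfp771 was at 37.1 and 1.87 FPKM, Zfp628 at 9.24 and 0.0977, and Zfp637 at 11.6 and 0.491. Zfp691 was at 19.8 and 2.70 FPKM and Zfp768 at 4.53 and 0.0326. Zfp622, whose human counterpart ZNF622 acts in the maturation of the large ribosomal subunit, was at 33.5 FPKM in PGCs, 19.9 in FGSCs, 4.84 in GV oocytes and 0.0963 in MII oocytes, an order that held on both scales. Zfp637 had the same order at 45.3, 33.4, 11.6 and 0.491 FPKM, but after scaling its highest value was in FGSCs.

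By the cell type of its highest value, each of the 115 members was assigned to 1 cell type, 35 to PGCs, 16 to FGSCs, 19 to GV oocytes and 45 to MII oocytes. Over all genes the shares were 25.1%, 17.7%, 17.4% and 39.8%, and over the members 30.4%, 13.9%, 16.5% and 39.1%. Of the KRAB members 34.9% were highest in PGCs and 47.6% in MII oocytes, and only 5 of 63 in GV oocytes, where 14 of 49 members without a box were highest. After scaling the KRAB members were highest in FGSCs in 39.4%, in MII oocytes in 24.2% and in PGCs in 22.7%, and still least often in GV oocytes, in 13.6%. All genes on that scale were highest in FGSCs in 35.8%, in MII oocytes in 24.0%, in PGCs in 17.8% and in GV oocytes in 22.3%.

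**Figure D4:**
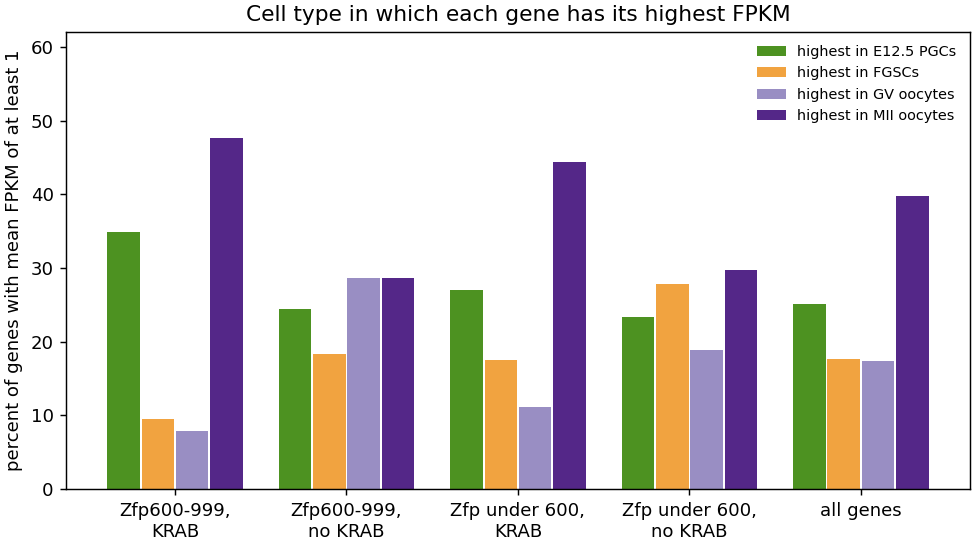
Bars give the percent of genes (mean of at least 1 FPKM, deposited scale) whose highest value lay in each cell type, for members and for Zfp genes with a number under 600, each split by KRAB A box, and for all genes. KRAB members were highest in GV oocytes in 7.94% of cases and members without a box in 28.6%.

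Levels were then read along the chromosomes. The cluster with the most members lies at chr17:21520711-23004101 (mm9, the build of the files), with 11 members, 9 of them with a KRAB box. In PGCs, FGSCs, GV oocytes and MII oocytes its median level came to 3.49, 2.18, 1.08 and 6.19 FPKM. In MII oocytes 8 members were highest (6 after scaling) and 7 were over 2-fold above GV oocytes (6 after scaling). Over all genes that passed the filter these shares were 39.8% and 35.6% (24.0% and 20.6% after scaling). Among the 7, in GV and MII oocytes, were Zfp942 at 1.93 and 35.3 FPKM, Zfp944 at 4.83 and 26.8 and Zfp820 at 0.279 and 9.10. Others were Zfp943 at 2.87 and 8.64, Zfp758 at 0.890 and 6.42 and Zfp760 at 0.414 and 3.92. Zfp946 was at 3.67 and 6.19 FPKM and Zfp947 at 1.08 and 3.03. The 3 members at its ends, Zfp677, Zfp948 and Zfp945, were instead highest in PGCs. Zfp677 was also among the 7, listed at 0 in GV oocytes and at 1.47 FPKM in MII oocytes. After scaling Zfp947, which lies between the ends, was highest in PGCs too, at 2.93 against 2.46 in MII oocytes.

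A cluster of the same kind at chr13:66771704-67788008 (mm9) holds 9 members, 8 with a KRAB box. Over 2-fold higher in MII than in GV oocytes were 3 of the 9 members, against 35.6% of all genes (20.6% after scaling). They were Zfp708, Zfp759 at 2.71 against 0.593 FPKM and Zfp748 at 6.33 against 1.05. After scaling Zfp759 was no longer past 2-fold. Zfp712, Zfp953 and Zfp874b stayed under 1 FPKM in every cell type. Zfp640 was at 9.61, 4.003, 2.12 and 4.68 FPKM in PGCs, FGSCs, GV and MII oocytes, Zfp738 at 3.86, 2.52, 0.844 and 0.779, and Zfp874a at 1.93, 2.80, 0.347 and 0.

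The cluster at chr7:134388039-135039131 (mm9) has 9 members as well, 4 of them with a KRAB box, and had another profile. Its members were highest in FGSCs in 6 cases (8 after scaling) and in MII oocytes in none on either scale. Over all genes that passed the filter these shares were 17.7% and 39.8% (35.8% and 24.0% after scaling). The 6 highest in FGSCs as deposited include Zfp747 and Zfp764, which did not pass it, with means of 0.457 and 0.209 FPKM. In FGSCs 6 members were over 2-fold above PGCs (7 after scaling), among them Zfp747, whose mean was below 1 FPKM. In MII oocytes 4 were over 2-fold below GV oocytes (5 after scaling). Over all genes these shares were 19.3% and 28.4% (35.2% and 41.5% after scaling). Zfp689 was at 0.0433, 2.60, 2.99 and 2.30 FPKM in PGCs, FGSCs, GV oocytes and MII oocytes, Zfp747 at 0.0120, 1.46, 0.354 and 0 and Zfp764 at 0.0123, 0.777, 0.0462 and 0. Zfp629 was at 2.28, 1.52, 0.207 and 0 FPKM and Zfp646, which shares its span with Zfp668, at 0.453, 2.57, 1.46 and 2.05. Zfp747 and Zfp764 share 55.2% and 47.9% of their words with other transcripts. Zfp771, Zfp768, Zfp668 and Zfp688 of this cluster were given above.

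**Figure D5:**
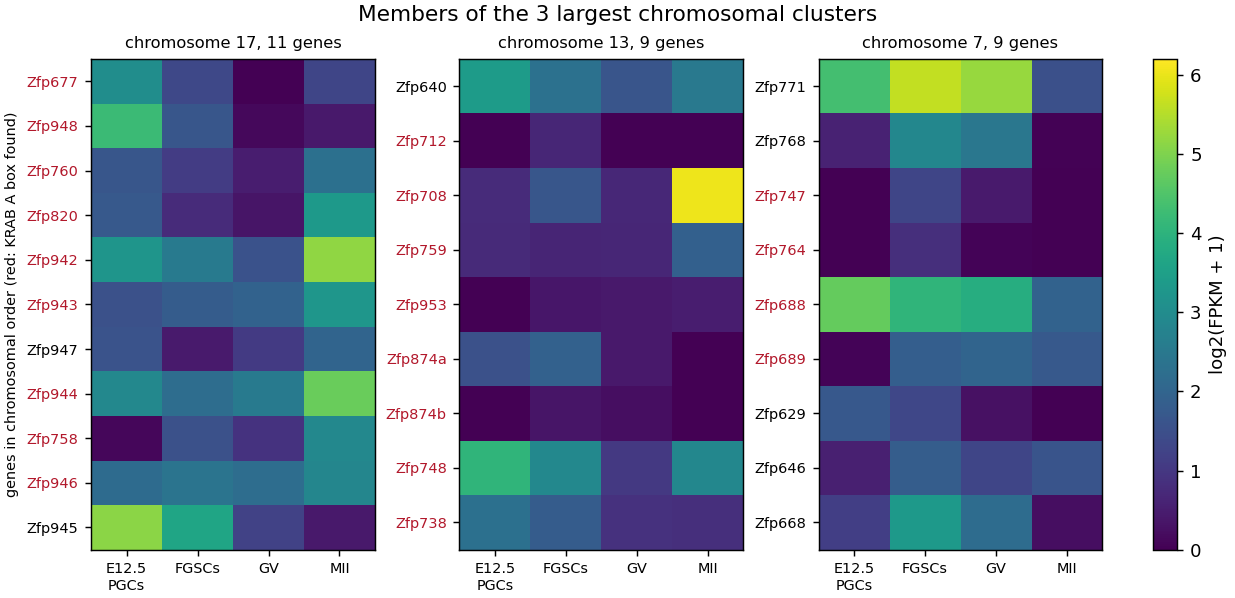
Colour gives log2(FPKM + 1) of each member of the 3 largest clusters (11, 9 and 9 genes) in the 4 cell types, in chromosomal order, with symbols of KRAB members in red. In the chromosome 17 cluster 8 members are brightest in MII oocytes, and in the chromosome 7 cluster none is.

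The smaller clusters given here were chosen after their values were seen, and others were mixed. That at chr8:71750241-72331648 (mm9), for example, had 2 members higher and 2 lower in MII than in GV oocytes. In each of the other comparisons it had 1 higher and 1 lower. At chr17:32908180-33440141 (mm9) 8 members, 7 with a KRAB box, had a median of 4.97 FPKM in PGCs, 2.70 in FGSCs, 0.622 in GV oocytes and 0.806 in MII oocytes. Of these 8, 6 were over 2-fold lower in GV oocytes than in PGCs (5 after scaling), against 29.1% of all genes (25.9% after scaling). Zfp955a and Zfp955b lie there and, with Zfp952 at 10.4 FPKM in GV and 16.9 in MII oocytes, were the 3 members highest in MII oocytes as deposited. At chr6:47769264-48036592 (mm9) all 5 members, Zfp786, Zfp783, Zfp956, Zfp777 and Zfp746, were over 2-fold higher in FGSCs than in PGCs on both scales, although the mean of Zfp786 was below 1 FPKM. Over all genes that share was 19.3% (35.2% after scaling). Zfp783 and Zfp956 have the same listed span, so the split of reads between them is uncertain. At chr7:4866818-4990048 (mm9) all 3 members, Zfp628, Zfp865 and Zfp784, none with a KRAB box, were highest in GV oocytes on both scales. Over all genes 17.4% were highest there (22.3% after scaling).

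Members with a known role in silencing or chromatin varied in level. Zfp644 and Zfp708, given above, reached 57.6 FPKM in GV oocytes and 65.1 in MII oocytes. The members in the rest of this paragraph lay between 0 and 14.3 FPKM. Zfp809, a KRAB protein that binds the primer binding site of murine leukemia proviruses, was at 3.37, 2.19, 0.972 and 1.43 FPKM in PGCs, FGSCs, GV and MII oocytes. Zfp932, which binds endogenous retroviruses and shares 58.0% of its words with other transcripts, mainly of its sister gene Gm15446, was at 14.3, 5.91, 9.38 and 6.83 FPKM. Zfp819, a KRAB protein of pluripotent cells, was at 0.103, 1.98, 0 and 5.51 FPKM. Zfp600 was at 3.04, 0.792, 0.180 and 5.42 FPKM, but shares its span with 29 other genes and 90.2% of its words. Zfp808 was at 4.79, 2.62, 0.676 and 0.464 FPKM, with 62.2% of its words shared. Zfp809, Zfp600 and Zfp808 were thus at least 2-fold lower in GV oocytes than in PGCs, and Zfp932 was not.

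In the same order of cell types Zfp687, whose human counterpart forms a complex with ZMYND8, was at 2.87, 8.98, 10.9 and 4.10 FPKM, and Zfp828 (CHAMP1), which helps to align chromosomes on the spindle, at 5.31, 14.0, 19.2 and 63.0. The latter was chosen after its values were seen. Zfp703, a corepressor partner of TLE proteins, was at 2.75, 7.22, 11.1 and 8.13 FPKM and its relative Zfp704 at 1.75, 1.30, 0.855 and 1.37. Zfp830, needed for splicing and for early embryos, stayed between 6.00 and 9.98 FPKM in all cell types. Zfp652, whose human counterpart represses with CBFA2T3, was at 0.193, 3.07, 3.58 and 2.80 FPKM. Zfp711, the X-linked relative of ZFX, was at 1.30, 0.817, 0.203 and 0.0693 FPKM.

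Of the other members named by role, Zfp639 (17.9, 12.3, 9.87 and 21.03 FPKM from PGCs to MII oocytes) and Zfp740 (3.18, 10.3, 2.53 and 3.64) were above 1 FPKM in every cell type. Zfp617 was at 7.10, 4.33, 1.70 and 1.48 FPKM, with 46.6% of its words shared. Zfp606 was at 1.36, 3.23, 0.720 and 3.64 FPKM and Zfp800 at 8.63, 3.88, 0.690 and 3.65, both lowest in GV oocytes. Zfp827, whose human counterpart acts at telomeres, reached at most 0.832 FPKM, in FGSCs, and Zfp804a, a gene linked to schizophrenia in humans, at most 0.0133 FPKM.

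The partners of KRAB proteins were read from a list of 31 corepressor and chromatin genes. Trim28 was at 146.1 FPKM in PGCs, 101.8 in FGSCs, 94.6 in GV oocytes and 250.9 in MII oocytes. The highest KRAB member of each cell type was below it, at 25.6, 15.5, 88.5 and 154.8 FPKM. Summed, the 85 KRAB members were above Trim28 in every cell type, at 315.1, 220.8, 256.4 and 766.5 FPKM. Setdb1 was at 5.70, 14.0, 14.0 and 26.3 FPKM. In MII oocytes 19 of the 31 were over 2-fold higher than in GV oocytes and 5 lower, with a median log2 ratio of 1.39, where the shares were 61.3% and 16.1% against 35.6% and 28.4% of all genes. In GV oocytes 6 were higher and 9 lower than in PGCs (19.4% and 29.0%, against 31.5% and 29.1% of all genes), with a median of -0.62. After scaling these medians were 0.27, with 11 higher (35.5% against 20.6%) and 7 lower (22.6% against 41.5%), and -0.33, with 7 higher (22.6% against 36.8%) and 8 lower (25.8% against 25.9%). In FGSCs 6 were higher (19.4% against 19.3%) and 7 lower (22.6% against 18.3%) than in PGCs, and 12 (38.7% against 35.2%) and 1 (3.23% against 8.24%) after scaling, where the median turned from -0.22 to 0.47. Among those that were higher in MII oocytes were Cbx3 (HP1 gamma) at 4.66 and 86.9 FPKM and Atrx at 15.8 and 404.7, and among those that were lower Ehmt2 (G9a) at 13.6 and 0.754. Dnmt3l, a cofactor of de novo DNA methylation in oocytes, was listed at 0 in PGCs and FGSCs and was at 19.2 FPKM in GV and 100.1 in MII oocytes.

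The labels of the cell types were checked against markers. Ddx4 (Mvh) was at 64.0, 59.0, 31.9 and 17.2 FPKM in PGCs, FGSCs, GV and MII oocytes, and Zp3, a protein of the egg coat, at 6.80, 6.49, 4780 and 790. Red blood cell genes, summed over 4, were at 14344, 5209, 21.5 and 0 FPKM. Of these Hbb-y, Hbb-bh1 and Hba-x are globin genes of embryonic blood, and they were at 3273, 329.5 and 1599 FPKM in FGSCs, which the Methods place in postnatal ovaries. The sum over 8 germ cell markers was 1508, 806, 4549 and 11209 FPKM, mostly from Dppa3, and without it 220.8, 343.5, 337.2 and 1076. Nanos3 was listed at 0 in MII oocytes. Granulosa markers were at 60.0 and 73.0 FPKM in GV and MII oocytes, with Cyp19a1 at 68.2 in the latter, and 3 endothelial markers at 25.7, 32.3, 2.98 and 44.6, with Pecam1 at 43.6 in MII oocytes. Leukocyte markers summed to at most 11.7 FPKM. The part of these cells in the levels of the members was not tested.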

How the data were processed

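RNA-seq of 9 libraries of 4 cell types was used. The authors made the deposited FPKM values. The submitters' processing notes name TopHat2, Cufflinks 2.2.1 and the build mm9, whereas the Methods of the study name mm10 and RefSeq annotation. The files carry Ensembl identifiers and mm9 coordinates, and cDNA was primed with oligo(dT). The 6 tables hold 1 pooled FPKM value per gene and cell type, equal in every table that holds it, and no column was of another sample. The authors' log2 ratios, test statistics, p-values and q-values in the same tables were not used. The files hold no counts, so the depth behind a value is unknown and no interval was computed.

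Values of E12.5 PGCs and FGSCs were taken from 1 table and those of oocytes from another, for 149 members and 216 Zfp genes with a number under 600. Log2 ratios had a pseudocount of 1, genes needed a mean of at least 1 FPKM, and a call needed 2-fold. No test was run because each cell type has 1 value. Coding sequences of GENCODE M21 were translated and searched for C-x(2,4)-C-x(12)-H-x(3,5)-H fingers and for 2 patterns of the KRAB A box. Promoters came from RefSeq (GRCm38.p6), and their coordinates were not joined with those of mm9.

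Named members were the 6 highest in each cell type, the 6 with the largest ratio in each direction of the 4 comparisons among those past 2-fold, members with a known role and all members of the largest clusters (the second place was tied, so 3 clusters are given). Of the members listed for a role, Zfp638 was not among the listed genes, and Zfp644, Zfp646, Zfp653, Zfp664, Zfp668, Zfp689, Zfp706, Zfp708, Zfp746, Zfp750, Zfp768, Zfp831 and Zfp961 appear under other groups. The members to be named and the gene lists were chosen with earlier results of these data known, while the family itself was set by symbol alone. Alternatives covered the pseudocount, filter, fold, centring, repeated symbols, thresholds and cluster distance, and, added after seeing the data, scaling to the same sum, members with a span or sequence of their own, and a KRAB box in any transcript. The calculations were tested on simulated data. Python 3.11.15, pandas 2.3.3, numpy 2.4.6, biopython 1.88 and matplotlib 3.10.9 were used.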

Additional observations from a re-analysis of the deposited data

How the results depend on the processing

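No paired analysis was possible because the deposited columns are pooled over libraries and carry no replicate numbers, and no library could be left out. A stricter filter, a higher fold or another scale moved most counts. With a mean of at least 5 FPKM, 10 members were higher in FGSCs over PGCs and 12 lower (median log2 ratio -0.43), 19 higher and 14 lower in GV oocytes than in PGCs (median -0.0737), 9 lower in GV oocytes than in FGSCs (median 0.43, a reversed direction), and 26 higher and 14 lower in MII than in GV oocytes (median 1.02). Fewer members entered these counts. At 4-fold there were 7 members higher and 2 lower in FGSCs over PGCs, 14 higher and 14 lower in GV oocytes than in PGCs, 10 higher and 5 lower in GV oocytes than in FGSCs, and 21 higher and 8 lower in MII than in GV oocytes. Without a filter the median was 0.045 for FGSCs against PGCs, a reversed direction, 0.0 for GV oocytes against PGCs and 0.0 for MII against GV oocytes. A pseudocount of 0.1 gave -0.38 for FGSCs against PGCs.

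Scaling to the same summed FPKM, added after seeing the data, gave 44 members higher and 8 lower in FGSCs than in PGCs (median 0.28, reversed), a median of -0.0052 for GV oocytes against PGCs, 51 lower in GV oocytes than in FGSCs (median -0.79), and 25 higher and 42 lower in MII than in GV oocytes (median -0.46, reversed). For KRAB members it reversed the median to 0.22 for FGSCs against PGCs and to -0.29 for MII against GV oocytes. With members that have a span of their own, 15 were higher in FGSCs and 16 in GV oocytes than in PGCs (the latter with a median of -0.54), and 14 were higher in GV oocytes than in FGSCs. For members without a KRAB box their median reversed to -0.14 for FGSCs against PGCs, where a mean of at least 5 FPKM also gave -0.0899, and to -0.012 for GV oocytes against FGSCs. With members that share at most 20% of words, 14 were lower in FGSCs than in PGCs (median -0.10), and the median of GV oocytes against PGCs reversed to 0.048. The cause of these changes was not tested.

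The class medians of GV oocytes against PGCs kept their signs under all 8 alternatives run on them, from -1.05 to -0.08 with a KRAB box and from 0.70 to 1.25 without one. For MII against GV oocytes the KRAB median, from -0.29 to 1.82, lay above that of the other class, from -1.17 to -0.17, under each of the same alternatives. The 48 ratios of single members that were the 6 largest in each direction stayed past 2-fold under the pseudocount of 0.1, centring and scaling. A smaller pseudocount can only enlarge a ratio (that of Zfp647 for FGSCs against PGCs was 3.07 as given and 6.22 with the pseudocount of 0.1). Centring moved ratios by 0.10 or less, so neither setting could take these 48 below 2-fold. Outside the 48, the ratio of Zfp759 between MII and GV oocytes fell below 2-fold with scaling. Of 181 other alternative values, 106 kept counts within 1.5 times or medians within 0.1, among them the counts above 0.5 or 2 FPKM in place of 1 and the clusters with starts at most 200 kb apart. The files give no counts, so what depth limits is unknown.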
